A study of Homo sapiens with 8 samples.

Results

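The genes described are NEO1, which encodes the receptor neogenin, with the other netrin receptor genes DCC, UNC5A, UNC5B and UNC5C, the netrin genes NTN1 and NTN4, and RGMA and RGMB of the repulsive guidance molecules. They were taken as the rows of the deposited count table with these 9 symbols, out of 20294 genes, and all 9 were found. The set was chosen by a measured value, the higher level of NEO1 in EZH2-guide libraries than in controls, with the other 8 genes added as its ligands and sister receptors. Comparisons of a guide with the control are therefore given for these genes as a description without a test. The guides were compared with each other with a test, since that contrast was not used to choose them. The controls enter it only through the filter, the scaling and the spread, which were fitted over all 3 groups.

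The cells were HSC-5, an established line of human cutaneous squamous cell carcinoma, and every library, controls included, came from cells with stable lentiviral Cas9 that had been selected with G418. RNA was sequenced from 3 libraries with the guide RNA sgEZH2-1, 3 with sgEZH2-2, a second guide RNA against EZH2, and 2 control libraries with the empty vector. EZH2 encodes the enzyme with which the Polycomb complex PRC2 methylates histone H3 at silent developmental genes. The design text describes triplicates and says that the authors left out 1 control that did not cluster with the others, and that library was not used here. Whether the libraries within a group are separate cultures is not labelled, so p-values measure only the spread among these libraries. HSC-5 is 1 cell line, and in its bulk RNA fewer cells with a transcript and less transcript per cell cannot be told apart.

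Netrins are secreted, laminin-related proteins that guide growing axons and also act on epithelial and endothelial cells. DCC and neogenin are closely related transmembrane receptors that bind netrins, and UNC5 receptors turn the response to repulsion. Neogenin is also the receptor of the repulsive guidance molecules, membrane-anchored proteins that serve as co-receptors for bone morphogenetic proteins (BMPs). DCC and the UNC5 receptors are among those known as dependence receptors, which promote cell death where ligand is missing.

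The promoter sequences of the 3 members with the largest fitted fold changes against control, NEO1, UNC5A and RGMA, are shown beside that of DCC, which stayed near 0 counts in every library. They are RefSeq sequences of build GRCh38.p14, from 250 bases before to 50 bases after the annotated start, and 7 of the 9 genes matched that table. Each is written 5′ to 3′ on the strand of its gene, with every CG dinucleotide in capitals, the step in which CpG islands are rich. For RGMA the first of its 5 listed promoters is shown.
NEO1 (chr15:73051652-73051951, plus strand): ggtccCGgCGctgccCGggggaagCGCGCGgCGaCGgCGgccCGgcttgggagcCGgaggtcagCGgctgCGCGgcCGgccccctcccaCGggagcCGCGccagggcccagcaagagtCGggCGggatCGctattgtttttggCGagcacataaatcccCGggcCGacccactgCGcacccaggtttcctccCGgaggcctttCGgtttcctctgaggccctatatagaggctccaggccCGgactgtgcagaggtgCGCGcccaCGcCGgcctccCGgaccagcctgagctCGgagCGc
UNC5A (chr5:176810309-176810608, plus strand): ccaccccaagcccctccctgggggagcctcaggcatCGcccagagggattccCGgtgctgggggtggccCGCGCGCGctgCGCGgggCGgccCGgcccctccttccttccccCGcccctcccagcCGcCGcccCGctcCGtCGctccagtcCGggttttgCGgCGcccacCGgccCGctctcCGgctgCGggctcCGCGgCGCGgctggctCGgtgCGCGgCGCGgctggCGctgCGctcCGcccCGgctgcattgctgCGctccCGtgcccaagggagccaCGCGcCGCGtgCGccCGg
RGMA (chr15:93089162-93089461, minus strand): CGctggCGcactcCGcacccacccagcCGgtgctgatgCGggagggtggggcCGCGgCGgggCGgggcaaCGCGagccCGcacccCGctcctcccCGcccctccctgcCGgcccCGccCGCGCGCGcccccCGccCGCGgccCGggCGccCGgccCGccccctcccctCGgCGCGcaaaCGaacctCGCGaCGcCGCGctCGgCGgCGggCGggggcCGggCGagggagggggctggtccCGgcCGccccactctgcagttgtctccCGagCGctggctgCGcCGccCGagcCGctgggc
DCC (chr18:52339947-52340246, plus strand): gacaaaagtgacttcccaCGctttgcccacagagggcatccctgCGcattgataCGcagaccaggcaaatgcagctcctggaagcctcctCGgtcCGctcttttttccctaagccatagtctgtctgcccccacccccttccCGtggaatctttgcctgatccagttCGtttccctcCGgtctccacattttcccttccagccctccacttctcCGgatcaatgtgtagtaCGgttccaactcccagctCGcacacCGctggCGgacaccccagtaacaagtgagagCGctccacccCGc
The NEO1 window held 35 CG dinucleotides, that of UNC5A 44 and the RGMA window shown 50, against 15 in that of DCC. The other RGMA windows held 31, 6, 19 and 48, so the one shown is the richest of the 5. The median over all 35116 RefSeq promoters of this length was 14.0, and 14.1% of them held at least as many as NEO1, 4.19% as many as UNC5A and 1.29% as many as the RGMA window shown. The motif GGGCGG, searched on both strands, was found 1 time in the NEO1 window, 4 times in that of UNC5A and 8 times in the RGMA window shown, and not in that of DCC. The other RGMA windows held 1, 0, 1 and 3. It was present in 45.0% of all promoters, and its matches contain CG and so overlap the CG count. NTN4, whose level differed little between groups, also had a window with 40 CG dinucleotides beside one with 21, so a CG-rich window was not limited to the genes with large differences. UNC5C, low throughout, had 22 CG dinucleotides, and the 3 windows of RGMB, which also differed little, held 12, 18 and 28. GGGCGG was found 0 times in the UNC5C window and 0, 1 and 2 times in those of RGMB. These counts describe sequence and are no measure of binding or of methylation.

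Library totals ran from 12607952 to 15468597 counts. EZH2 itself (chromosome 7, 148807383 to 148884321, minus strand, GRCh38) was at 56.4, 56.3 and 48.0 CPM (the usual depth-scaled count, here on TMM-scaled library totals) with sgEZH2-1 and at 73.9, 67.6 and 65.1 CPM with sgEZH2-2, against 82.7 and 84.1 CPM in the controls. It fell with sgEZH2-1 (log2 fold change -0.64, adjusted p = 0.000529 in edgeR) and was at -0.28 with sgEZH2-2 (adjusted p = 0.0699). Of 12 keratinocyte markers all were tested, with summed levels of 3064 to 3672 CPM with sgEZH2-1, 3167 to 3303 CPM with sgEZH2-2 and 3607 to 3830 CPM in the controls. Summed markers of neurons, the cells in which these receptors are best known, were at 14.7 to 23.1 CPM with sgEZH2-1 and 17.8 to 20.8 CPM with sgEZH2-2, against 13 to 16.1 CPM in the controls. SNAP25, NEFM, STMN2 and ELAVL4 were at 0 counts in all groups, while 2 of the 9 neuron markers had enough counts to be tested. Endothelial markers summed to 8.65 to 14.5 CPM with sgEZH2-1 and 16.8 to 21.0 CPM with sgEZH2-2, against 7.43 to 11.9 CPM in the controls. KDR and TIE1 were at 0 throughout, while 3 of the 8 had enough counts to be tested. Fibroblast markers summed to 5.02 to 8.96 CPM with sgEZH2-1 and 11.0 to 14.1 CPM with sgEZH2-2, against 6.13 to 7.24 CPM in the controls. Of these 9 markers 1 had enough counts to be tested. Melanocyte markers summed to at most 33.1 CPM in any library, with TYR, DCT and SOX10 at 0 throughout and 3 of the 7 high enough to be tested. The sums of each list thus rest on its other genes. The part of these markers in the results was not tested.

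NEO1 (ENSG00000067141.16, chromosome 15, 73051710 to 73305206, plus strand) was the receptor whose mean CPM differed most from the controls with either guide. It was at 63.3, 62.3 and 54.8 CPM with sgEZH2-1 and at 40.7, 39.8 and 43.4 CPM with sgEZH2-2, against 2.7 and 2.28 CPM in the controls. The 3 groups did not overlap: each sgEZH2-1 library lay above each sgEZH2-2 library, and each of these above both controls. The fitted log2 fold change was 4.59 (SE 0.13) with sgEZH2-1 and 4.05 (SE 0.13) with sgEZH2-2, or 24.1-fold and 16.6-fold. These values chose the set and share the same 2 controls, so no test is given. The guide libraries held 819, 911 and 783 counts of NEO1 with sgEZH2-1 and 590, 506 and 569 with sgEZH2-2, and the controls, with 38 and 35, were not at 0. The annotated genes that overlap members are antisense or other non-coding genes and pseudogenes outside the count table, and HK3, which lies opposite UNC5A and had 0 counts. The strand setting of the counting is not given in the sources used here, so reads from an antisense partner of NEO1, UNC5B, UNC5C, NTN1 or RGMB cannot be told apart from their own.

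Between the guides, NEO1 was higher with sgEZH2-1, at 60.1 ± 4.62 CPM (SD, n = 3), than with sgEZH2-2, at 41.3 ± 1.87 CPM (SD, n = 3). The log2 fold change was 0.54 (SE 0.075, adjusted p = 0.000943 in edgeR's quasi-likelihood test). EZH2 differed in the other direction between the same libraries, with a log2 fold change of -0.36 (SE 0.076, adjusted p = 0.00844 in edgeR). The guide with the lower EZH2 transcript level was also the one with the higher NEO1 level, as measured in 2 guides. Between these guides 21.9% of all tested genes were called, and a link between the 2 differences was not tested. The EZH2 values are RNA levels and do not measure how much EZH2 protein or activity remained.

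**Figure D1:**
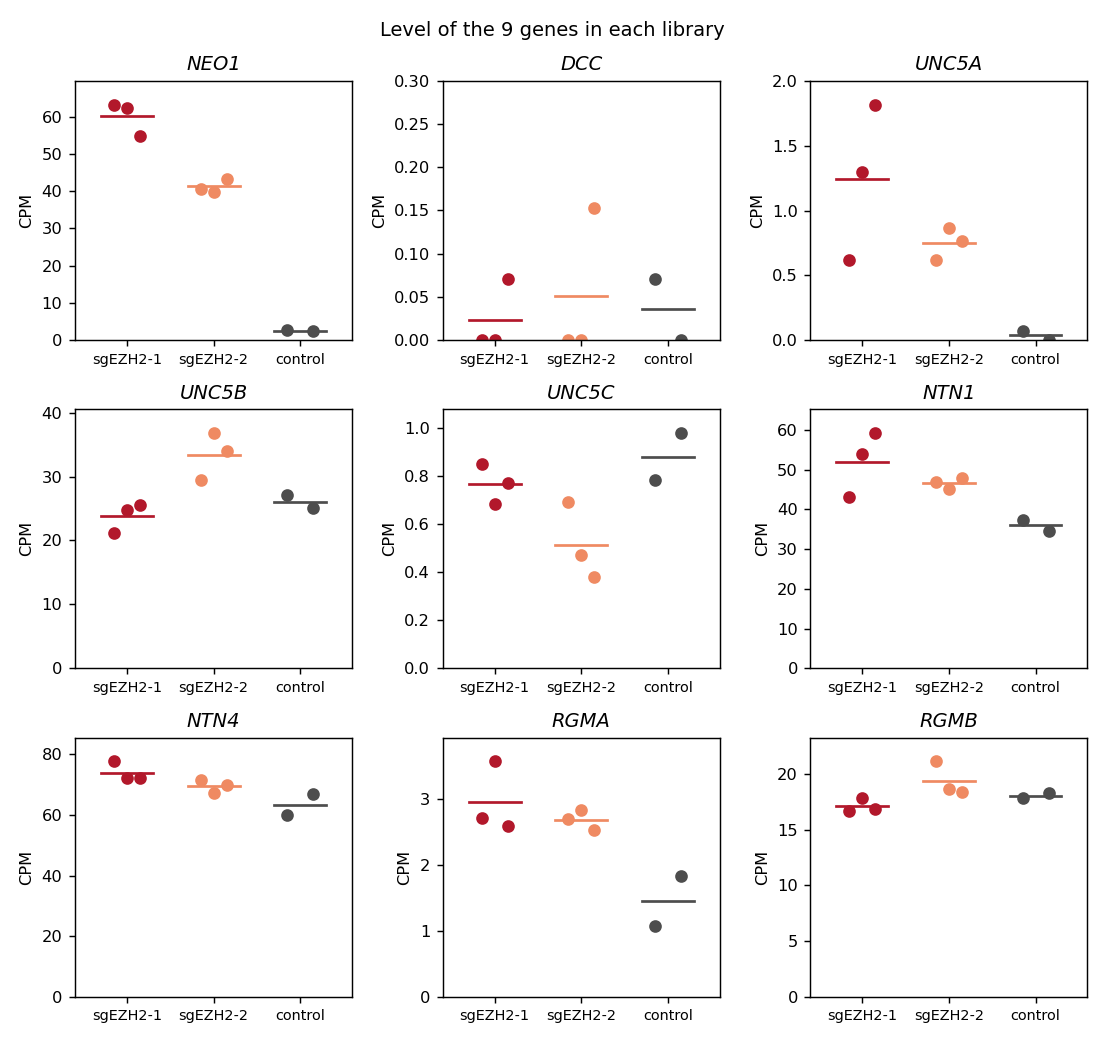
Level of each of the 9 genes in CPM (linear axes from 0) in 3 sgEZH2-1, 3 sgEZH2-2 and 2 control libraries; points are libraries and lines are group means. NEO1 separates into 3 levels, with means of 60.1, 41.3 and 2.49 CPM, while NTN4 and RGMB lie close together in all groups and DCC stays at or below 0.153 CPM.

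UNC5A (ENSG00000113763.11, chromosome 5, 176810477 to 176880898, plus strand) was near silent in the controls and low with either guide. It had 8, 19 and 26 counts with sgEZH2-1 and 9, 11 and 10 counts with sgEZH2-2, against 1 and 0 counts in the controls. Every guide library was above both controls. The ratio to control of summed counts over summed scaled library totals was 37.3 with sgEZH2-1, with an exact 95% counting interval of 6.4 to 1499, and 21.9 with sgEZH2-2, with an interval of 3.64 to 893. The single control count makes these ratios imprecise, and UNC5A passed the filter on low counts only through the guide libraries. The fitted log2 fold change was 4.88 with sgEZH2-1, or 7.14 without the first control and 3.98 without the second. With sgEZH2-2 it was 4.13, or 6.4 without the first control and 3.24 without the second. Without the first control the other one is at 0 counts, so these fitted values are no bound. Between the guides the log2 fold change was 0.75 (SE 0.42, adjusted p = 0.226 in edgeR), and the libraries overlapped.

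UNC5B (ENSG00000107731.12, chromosome 10, 71212570 to 71302864, plus strand), the UNC5 receptor known from blood vessel growth, was per length the most abundant of the 5 receptors in the controls. It was at 21.2, 24.7 and 25.6 CPM with sgEZH2-1 and at 29.5, 36.8 and 34.0 CPM with sgEZH2-2, against 27.1 and 25 CPM in the controls. The sgEZH2-1 libraries overlapped the controls, and the sgEZH2-2 libraries lay above both. The log2 fold change against control was -0.12 (SE 0.11) with sgEZH2-1 and 0.36 (SE 0.11) with sgEZH2-2. Between the guides UNC5B was lower with sgEZH2-1 in all libraries, at 23.8 ± 2.36 CPM (SD, n = 3), than with sgEZH2-2, at 33.5 ± 3.67 CPM (SD, n = 3). That log2 fold change was -0.49 (SE 0.1, adjusted p = 0.00795 in edgeR). NEO1 and UNC5B therefore differed between the guides in opposite directions.

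UNC5C (ENSG00000182168.14, chromosome 4, 95162504 to 95549206, minus strand) was low throughout. It had 11, 10 and 11 counts with sgEZH2-1 and 10, 6 and 5 counts with sgEZH2-2, against 11 and 15 counts in the controls. The sgEZH2-1 libraries overlapped the controls and the sgEZH2-2 libraries lay below both, with log2 fold changes of -0.2 (SE 0.35) and -0.75 (SE 0.38). Between the guides the log2 fold change was 0.55 (SE 0.35, adjusted p = 0.307 in edgeR). DCC (ENSG00000187323.11, chromosome 18, 52340172 to 53535903, plus strand), the receptor most closely related to neogenin, had 1 count over the 3 sgEZH2-1 libraries and 2 over the 3 sgEZH2-2 libraries, against 1 over the controls. It was the 1 member not tested, and these counts are at or below a floor of 3 counts in each group, which corresponds to 0.0717 CPM with sgEZH2-1, 0.0744 CPM with sgEZH2-2 and 0.102 CPM in the controls. A difference in DCC was not detectable at this depth.

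Levels of different genes were set side by side per length, as counts per base of merged exons scaled to the same total in each library over all genes with a length (in ppm, computed as TPM is). On this scale the 5 receptors summed to 44.3 ± 1.35 (SD, n = 3) for sgEZH2-1 and 40.8 ± 1.39 (SD, n = 3) for sgEZH2-2, against 16.3 ± 0.787 in the controls (SD, n = 2). NEO1 made up 61.4% to 70.2% of this sum in the sgEZH2-1 libraries and 46.6% to 52.6% in the sgEZH2-2 libraries, against 6.99% and 7.59% in the controls. UNC5B made up 27.8% to 34.1% with sgEZH2-1 and 45.3% to 51.1% with sgEZH2-2, against 90.3% and 90.7% in the controls. The receptor transcripts were mostly NEO1 with sgEZH2-1 and similar amounts of NEO1 and UNC5B with sgEZH2-2, against nearly all UNC5B in the controls. The per-length ratio of NEO1 to UNC5B was 1.8 to 2.52 in the sgEZH2-1 libraries and 0.911 to 1.16 in the sgEZH2-2 libraries, against 0.077 and 0.0841 in the controls, so the order of the pair could not be told within sgEZH2-2. The per-length level of NEO1 exceeded that of 72.4% of all genes with sgEZH2-1 and 65.6% with sgEZH2-2, against 41.1% in the controls.

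**Figure D2:**
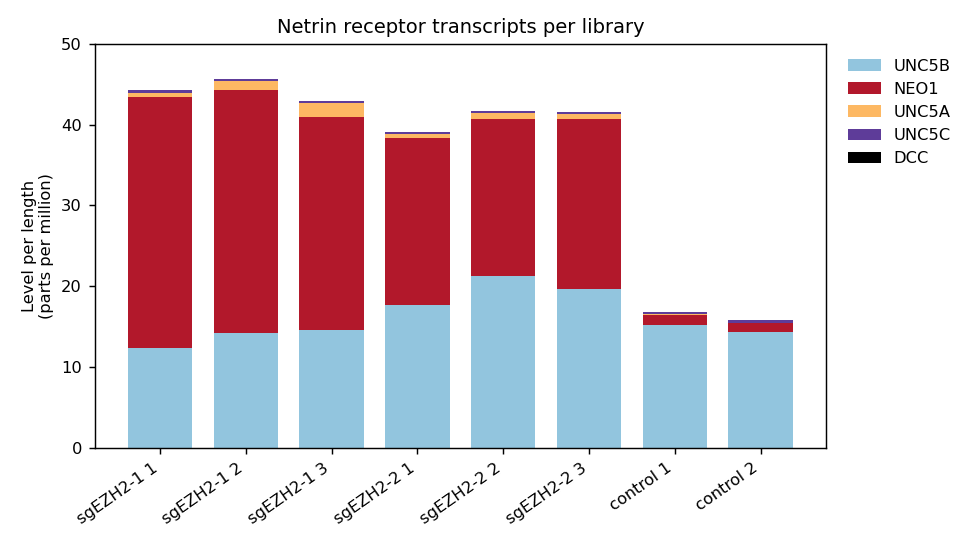
Per-length level of the 5 netrin receptor transcripts, stacked, in ppm for each library (linear axis from 0). The summed height is 43.0 to 45.7 with sgEZH2-1 and 39.2 to 41.6 with sgEZH2-2, against 15.8 and 16.9 in the controls, and the NEO1 section accounts for most of the added height.

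Among the ligands, NTN1 (ENSG00000065320.8, chromosome 17, 9021542 to 9244000, plus strand), the founding netrin of axon guidance, was higher in every guide library than in either control. It was at 43.0, 53.8 and 59.2 CPM with sgEZH2-1 and at 46.8, 45.2 and 47.8 CPM with sgEZH2-2, against 37.4 and 34.6 CPM in the controls. The log2 fold change was 0.53 (SE 0.12) with sgEZH2-1 and 0.37 (SE 0.12) with sgEZH2-2. The sgEZH2-1 libraries spread on both sides of those with sgEZH2-2. Between the guides the log2 fold change was 0.16 (SE 0.1, adjusted p = 0.287 in edgeR), and without the first sgEZH2-1 library it was 0.28 with an adjusted p of 0.0244.

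NTN4 (ENSG00000074527.11, chromosome 12, 95657807 to 95791152, minus strand), a netrin of basement membranes that binds laminin, was the most abundant member in every group per length, at 70.0 ± 3.74 (SD, n = 3) for sgEZH2-1 and 66.7 ± 3.37 (SD, n = 3) for sgEZH2-2, against 59.0 ± 5.27 in the controls (SD, n = 2; ppm). In CPM it was at 77.6, 72.3 and 72.0 with sgEZH2-1 and at 71.4, 67.1 and 69.9 with sgEZH2-2, against 59.9 and 66.8 in the controls. All guide libraries lay above both controls, though the nearest by little. The log2 fold change was 0.22 (SE 0.07) with sgEZH2-1 and 0.13 (SE 0.07) with sgEZH2-2, and 0.09 (SE 0.062, adjusted p = 0.321 in edgeR) between the guides.

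RGMA (ENSG00000182175.14, chromosome 15, 93035273 to 93089204, minus strand), a ligand of neogenin, was low and was higher in all guide libraries than in the controls. It had 35, 52 and 37 counts with sgEZH2-1 and 39, 36 and 33 counts with sgEZH2-2, against 15 and 28 counts in the controls. The mean was 2.95 ± 0.529 CPM (SD, n = 3) for sgEZH2-1 and 2.68 ± 0.158 CPM (SD, n = 3) for sgEZH2-2, against 1.45 ± 0.538 CPM in the controls (SD, n = 2). The controls differed from each other, and the log2 fold change with sgEZH2-1 was 1.02 (SE 0.28) and ran from 0.7 without the first control to 1.46 without the second. With sgEZH2-2 it was 0.88 (SE 0.28) and ran from 0.56 to 1.32. Between the guides it was 0.14 (SE 0.23, adjusted p = 0.683 in edgeR).

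RGMB (ENSG00000174136.11, chromosome 5, 98768650 to 98798643, plus strand), the other repulsive guidance molecule listed, stayed within a narrow range. It was at 16.7, 17.8 and 16.8 CPM with sgEZH2-1 and at 21.1, 18.6 and 18.4 CPM with sgEZH2-2, against 17.8 and 18.3 CPM in the controls. The log2 fold change was -0.078 (SE 0.092) with sgEZH2-1 and 0.1 (SE 0.091) with sgEZH2-2. Between the guides it was -0.18 (SE 0.082, adjusted p = 0.14 in edgeR), with all sgEZH2-1 libraries below those with sgEZH2-2. Per length RGMB, at 10.1 with sgEZH2-1 and 11.6 with sgEZH2-2 against 10.5 ppm in the controls, stood above RGMA, at 0.879 and 0.811 against 0.425, in every group.

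**Figure D3:**
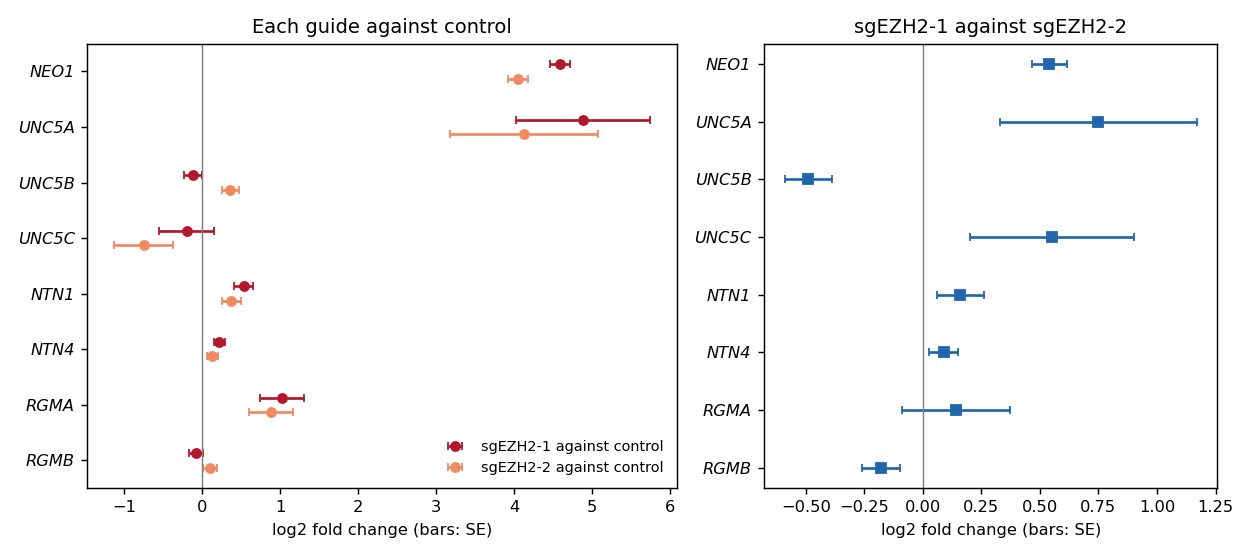
Fitted log2 fold changes of the 8 tested genes (points) with their standard errors (bars), for each guide against control on the left and for sgEZH2-1 against sgEZH2-2 on the right. NEO1 and UNC5A stand at 4.05 to 4.88 against control, where the UNC5A values rest on 1 control count and run from 3.24 to 7.14 when a control is left out, and between the guides NEO1 at 0.54 and UNC5B at -0.49 lie on opposite sides of 0.

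Per length the order with sgEZH2-1 was NTN4, NTN1, NEO1, UNC5B, RGMB, UNC5A, RGMA, UNC5C and DCC. NTN1, at 32.1 ± 4.78, and NEO1, at 29.2 ± 2.46 (SD, n = 3; ppm), did not differ beyond their spread. With sgEZH2-2 NTN1 at 29.2 ± 1.07 stood above NEO1 at 20.3 ± 0.859, and NEO1 did not differ from UNC5B at 19.5 ± 1.78 beyond their spread (SD, n = 3). In the controls NEO1, at 1.19 ± 0.126, stood at place 5, below NTN4 at 59.0 ± 5.27, NTN1 at 21.9 ± 0.938, UNC5B at 14.8 ± 0.656 and RGMB at 10.5 ± 0.306 (SD, n = 2). Its libraries there overlapped no other member, while RGMA and UNC5C overlapped each other, as RGMA and UNC5A did with either guide. With the longest transcript as length, UNC5B exchanged its place with RGMB in the controls and with sgEZH2-1, and NEO1 kept its place in each group.

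Over all 13124 genes tested with edgeR, 20.8% were called with sgEZH2-1 against control at an adjusted p of at most 0.05, 11.3% higher and 9.51% lower. With sgEZH2-2 against control 8.68% of all genes were called, 6.18% higher and 2.50% lower. No calls of the 9 genes are counted in these contrasts, which chose the set. Between the guides 21.9% of all genes were called, 10.4% higher and 11.5% lower with sgEZH2-1, and of the 8 tested genes of the set 1 was called higher (NEO1) and 1 lower (UNC5B). The share of the set called between the guides was near that over all genes. These counts rested on few libraries: without the first control 1373 genes were called with sgEZH2-1 in place of 2726, and 521 with sgEZH2-2 in place of 1139.

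The genes whose pattern over the 8 libraries was most like that of NEO1 were KHDRBS3, SATB1, PPM1H, TMEM98 and RUNX3, in order of the Euclidean distance between mean-centred log2 CPM. KHDRBS3, an RNA-binding protein gene, had a distance of 0.411, and RUNX3, a Runt transcription factor gene, one of 0.902, where the median over 11033 other genes was 5.29. PPM1H, a phosphatase gene, was at 19.6 ± 0.839 CPM (SD, n = 3) for sgEZH2-1 and 14.2 ± 1.72 CPM (SD, n = 3) for sgEZH2-2, against 1.03 ± 0.351 CPM in the controls (SD, n = 2). SATB1, a chromatin organizer gene, was at 10.0, 6.81 and 0.302 CPM on average in the same 3 groups, and TMEM98, a membrane protein gene, at 10.6, 7.72 and 0.545. KHDRBS3 was at 6.46, 4.17 and 0.136 CPM, with fitted log2 fold changes against control of 5.48 and 4.85. The prior count of 2 draws in such low control levels, so the order of the 5 genes depends on it. All 5 reached the mean count of 50 mainly through the guide libraries. Any gene much higher with both guides lies below the median distance, so that median is no measure of chance. The libraries are shared by all these values, so the likeness is a description.

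The genome around NEO1 showed no comparable change among genes with enough counts. Of 6 genes of the table that start within 500 kb of the NEO1 start, BBS4 and ADPGK were tested. ADPGK, a glucokinase gene with a start at -265.9 kb from that of NEO1, was at 83.2 CPM with sgEZH2-1 and 74.1 CPM with sgEZH2-2, against 72.4 CPM in the controls. It rose with sgEZH2-1 (log2 fold change 0.2, adjusted p = 0.0322 in edgeR), a call that was lost without either control, at 0.23 (adjusted p = 0.0864) and 0.18 (adjusted p = 0.121), without the second sgEZH2-1 library, at 0.19 (adjusted p = 0.101), and without the second or the third sgEZH2-2 library, at 0.2 (adjusted p = 0.0538 and 0.0573), and under 7 of 13 alternatives in all. With sgEZH2-2 it was at 0.034 (adjusted p = 0.786). BBS4, a gene of primary cilia, was at 0.17 with sgEZH2-1 (adjusted p = 0.469) and at 0.26 with sgEZH2-2 (adjusted p = 0.34) on the log2 scale. GOLGA6B, HIGD2B, HCN4 and REC114 were at or below 0.246 CPM on average in each group.

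Genes of the lists that follow were named for their smallest adjusted p in the same contrasts, so they are the most differing of each list. The exceptions are WASF2, BMP7, ID3, ID4, SMAD6, SMAD7 and the untested genes. The lists were made with earlier results of these data known, so their p-values are no independent support. Among signalling genes below DCC and neogenin, MAP1B rose with both guides. Of 22 tested of 23, 4 rose (18.2%, against 11.3% over all genes) and 0 fell (against 9.51%) with sgEZH2-1. The median log2 fold change was 0.023, against -0.0094 over all genes. With sgEZH2-2 1 rose (4.55%, against 6.18% over all genes) and 0 fell (against 2.50%). The median was 0.018, against 0.00091 over all genes. The shares of this and the following lists were not tested. MAP1B, a microtubule-binding protein of growing axons, was at 34.6, 35.7 and 29.1 CPM with sgEZH2-1 and at 15.1, 12.1 and 12.8 CPM with sgEZH2-2, against 6.39 and 6.13 CPM in the controls. It rose with sgEZH2-1 (log2 fold change 2.4, adjusted p = 3.04e-06) and with sgEZH2-2 (1.1, adjusted p = 0.0011), and differed between the guides (1.31, adjusted p = 4.89e-05). FYN, a Src-family kinase that phosphorylates DCC, rose with sgEZH2-1 (2.69, adjusted p = 0.000338) and was at 1.33 with sgEZH2-2 (adjusted p = 0.0504), and differed between the guides (1.37, adjusted p = 0.00374). TRIM9, a ubiquitin ligase that binds DCC, rose with sgEZH2-1 (2.41, adjusted p = 0.0173), but without the first control it was at 1.76 (adjusted p = 0.133). In the controls FYN had only 6 and 11 counts and TRIM9 1 and 5. With sgEZH2-1 FYN had 49, 62 and 47 counts and TRIM9 10, 15 and 22. Both genes passed the filter on low counts only through the guide libraries, so their values against control are imprecise and no independent support. PTK2, the focal adhesion kinase, was lower with sgEZH2-1 than with sgEZH2-2 (-0.19, adjusted p = 0.0169), a call lost without the second or the third sgEZH2-1 library or the third sgEZH2-2 library (adjusted p = 0.0665, 0.0515 and 0.071).

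All 9 genes of the WAVE complex, an actin regulator that neogenin binds, were tested, and with sgEZH2-1 its paralogous subunits CYFIP2 and CYFIP1 moved in opposite directions. With sgEZH2-1 2 rose and 2 fell (22.2% each, against 11.3% and 9.51% over all genes, median 0.015). With sgEZH2-2 2 rose (22.2%, against 6.18% over all genes) and 0 fell (against 2.50%, median 0.033). CYFIP2 was at 13.1, 12.2 and 11.1 CPM with sgEZH2-1 and at 20.9, 20.1 and 17.8 CPM with sgEZH2-2, against 4.47 and 3.91 CPM in the controls. It rose by 1.53 on the log2 scale with sgEZH2-1 (adjusted p = 5.16e-05) and by 2.23 with sgEZH2-2 (adjusted p = 1.23e-05). Its paralog CYFIP1 fell with sgEZH2-1 (-0.41, adjusted p = 0.000325), to 172, 180 and 171 CPM from 232 and 230 CPM in the controls. CYFIP1 thus stayed far above CYFIP2 in CPM. WASF2 fell as well with sgEZH2-1 (-0.22, adjusted p = 0.0227). It was at 264 CPM on average in the controls, where WASF3 was at 12.3 CPM. WASF3 rose with sgEZH2-1 (0.55, adjusted p = 0.00396) and with sgEZH2-2 (0.56, adjusted p = 0.00804), the second value becoming 0.53 (adjusted p = 0.0706) without the first control. Between the guides CYFIP2 (-0.7, adjusted p = 0.00137) and CYFIP1 (-0.26, adjusted p = 0.00317) were lower with sgEZH2-1 and NCKAP1 was higher (0.22, adjusted p = 0.0344), and the call of NCKAP1 was lost without any 1 of 5 guide libraries (adjusted p = 0.0685 to 0.122).

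Among genes listed as partners of neogenin at cell contacts, CDH2 and LRIG1 moved in opposite directions with the 2 guides. Of 7 tested of 8, 3 rose and 2 fell with sgEZH2-1 (42.9% and 28.6%, against 11.3% and 9.51% over all genes, median -0.12). With sgEZH2-2 2 rose and 1 fell (28.6% and 14.3%, against 6.18% and 2.50% over all genes, median -0.072). CDH2, N-cadherin, was at 34.8, 34.3 and 34.9 CPM with sgEZH2-1 and at 12.8, 12.6 and 13.8 CPM with sgEZH2-2, against 26.3 and 23.6 CPM in the controls. It rose with sgEZH2-1 (0.47, adjusted p = 0.00227) and fell with sgEZH2-2 (-0.93, adjusted p = 0.000121), with a difference between the guides of 1.41 (adjusted p = 3.59e-06). LRIG1, a leucine-rich repeat membrane protein that restrains growth factor receptors, was at 56.8, 56.9 and 53.4 CPM with sgEZH2-1 and at 90.6, 95.3 and 99 CPM with sgEZH2-2, against 77.7 and 77.6 CPM in the controls. It fell with sgEZH2-1 (-0.48, adjusted p = 0.000538) and rose with sgEZH2-2 (0.29, adjusted p = 0.0177), the rise losing its call without either control (adjusted p = 0.0881 and 0.0848) and without the second or the third sgEZH2-2 library (adjusted p = 0.0615 and 0.0761). The difference of LRIG1 between the guides was -0.77 (adjusted p = 2.23e-05). BOC, a cell-surface relative of CDON, fell with sgEZH2-1 (-1.08, adjusted p = 0.000126), was at -0.081 with sgEZH2-2 (adjusted p = 0.716), and differed between the guides (-1.0, adjusted p = 0.000173). CDON, which forms a complex with neogenin in muscle precursors, rose with sgEZH2-1 (0.64, adjusted p = 0.00427) and with sgEZH2-2 (0.84, adjusted p = 0.00172).

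**Figure D4:**
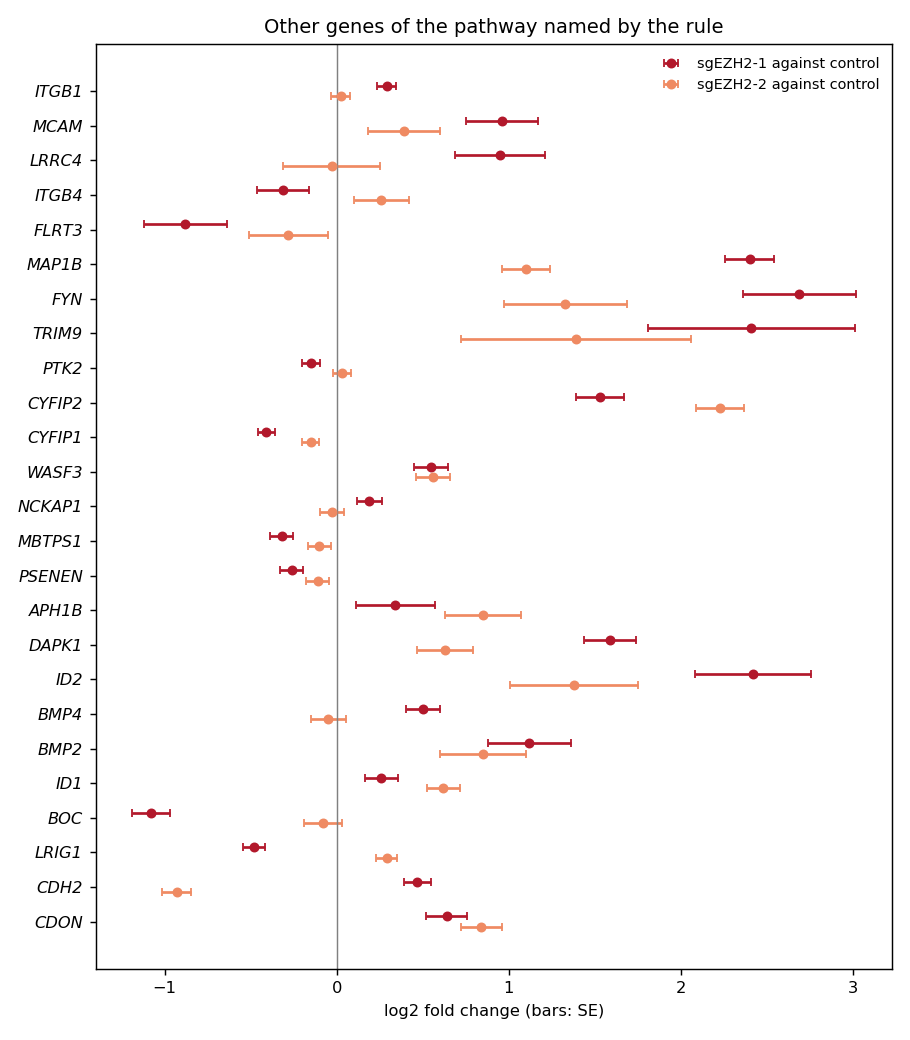
Fitted log2 fold changes (points) with standard errors (bars) against control for 25 further genes of the pathway lists, for sgEZH2-1 and sgEZH2-2. The genes were picked for their smallest adjusted p in these data, from lists made with earlier results known. CDH2 stands at 0.47 with sgEZH2-1 and -0.93 with sgEZH2-2, LRIG1 at -0.48 and 0.29, and MAP1B at 2.4 and 1.1.

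Of the BMP genes, which the repulsive guidance molecules act on as co-receptors, 19 of 21 were tested. With sgEZH2-1 4 rose and 1 fell (21.1% and 5.26%, against 11.3% and 9.51% over all genes, median 0.15). With sgEZH2-2 2 rose (10.5%, against 6.18% over all genes) and 0 fell (against 2.50%, median 0.14). ID1 and ID2 are targets of BMP signalling, and a response of the pathway was not tested. ID3, ID4, SMAD6 and SMAD7 of the same list were not called with either guide. ID3 was at 0.1 with sgEZH2-1 (adjusted p = 0.706) and at 0.094 with sgEZH2-2 (adjusted p = 0.792). ID2 rose with sgEZH2-1 (2.42, adjusted p = 0.000746) and with sgEZH2-2 (1.38, adjusted p = 0.0464), the second call being lost under 10 of 13 alternatives, 7 of them with 1 library left out (adjusted p up to 0.23), and in DESeq2 (adjusted p = 0.142). ID2 had 28, 40 and 33 counts with sgEZH2-1 and 16, 12 and 19 with sgEZH2-2, against 5 and 8 in the controls. It too passed the filter on low counts only through the guide libraries. ID1 rose with sgEZH2-2 (0.62, adjusted p = 0.00282) and was at 0.26 with sgEZH2-1 (adjusted p = 0.0806). BMP4 rose with sgEZH2-1 (0.5, adjusted p = 0.00509) and was at -0.048 with sgEZH2-2 (adjusted p = 0.831), with a difference between the guides of 0.55 (adjusted p = 0.002). BMP7, the listed BMP with the highest CPM, was the gene that fell with sgEZH2-1 (-0.31, adjusted p = 0.0218). It was at 90.1 CPM there, against 112 CPM in the controls, where BMP4 was at 24.0 and BMP2 at 1.36 CPM on average. With sgEZH2-2 BMP7 was at -0.05 (adjusted p = 0.775). BMP2 rose with sgEZH2-1 (1.12, adjusted p = 0.00881), or 1.11 (adjusted p = 0.0585) without the first control.

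Among 7 tested of 8 genes of dependence receptor death, DAPK1, a death-associated kinase that UNC5B binds, was the 1 that rose, and 0 fell, with either guide. It was at 16.3, 15.7 and 19.8 CPM with sgEZH2-1 and at 7.8, 9.91 and 8.92 CPM with sgEZH2-2, against 5.4 and 6.06 CPM in the controls. It rose by 1.59 on the log2 scale with sgEZH2-1 (adjusted p = 8.49e-05) and by 0.63 with sgEZH2-2 (adjusted p = 0.0392), and differed by 0.96 between the guides (adjusted p = 0.000801). The call with sgEZH2-2 was lost without either control (adjusted p = 0.196 and 0.104) and without its second or its last library (adjusted p = 0.126 and 0.102). This single gene made 14.3% of the tested list, against 11.3% of all genes called higher with sgEZH2-1 and 6.18% with sgEZH2-2. It is thus no result about the list as a whole. The median of the list was 0.045 with sgEZH2-1 and -0.04 with sgEZH2-2.

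Of 11 other netrin receptors 7 were tested. With sgEZH2-1 3 rose (42.9%, against 11.3% over all genes) and 0 fell (against 9.51%, median 0.22). With sgEZH2-2 0 were called (against 8.68% over all genes, median 0.023). MCAM, an adhesion molecule that binds netrin, rose with sgEZH2-1 (0.96, adjusted p = 0.00875), but without the second control it was at 0.73 (adjusted p = 0.0668). ITGB1, an integrin subunit, rose with sgEZH2-1 (0.29, adjusted p = 0.00585), or 0.23 (adjusted p = 0.0701) without the first control. LRRC4, a synaptic adhesion gene, rose with sgEZH2-1 (0.95, adjusted p = 0.0262), but without the second control it was at 0.66 (adjusted p = 0.161) and without the third sgEZH2-1 library at 0.84 (adjusted p = 0.0677), and the call was also lost in DESeq2 (adjusted p = 0.0863) and with only the libraries compared (adjusted p = 0.0512). UNC5D, DSCAM, DSCAML1 and LRRC4C had too few counts to be tested. Of 10 other ligands 3 were tested, and FLRT3, a ligand of UNC5 receptors, fell with sgEZH2-1 (-0.88, adjusted p = 0.0251), a call that was lost without either control (adjusted p = 0.099 and 0.0921) and without the second sgEZH2-1 library (adjusted p = 0.091), and in DESeq2 (adjusted p = 0.0681). FLRT3 alone made 33.3% of the 3 tested ligands, against 9.51% of all genes called lower with sgEZH2-1. The median of the 3 was 0.31 with sgEZH2-1 and -0.1 with sgEZH2-2, where 0 were called.

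Of 12 genes of proteases that cut these receptors or RGMA 11 were tested. With sgEZH2-1 0 rose (against 11.3% over all genes) and 2 fell (18.2%, against 9.51%, median -0.072). With sgEZH2-2 1 rose (9.09%, against 6.18% over all genes) and 0 fell (against 2.50%, median 0.016). MBTPS1, the proprotein convertase that cleaves RGMA, fell with sgEZH2-1 (-0.32, adjusted p = 0.00722), or -0.31 (adjusted p = 0.0601) without the first control. PSENEN and APH1B, both of the gamma-secretase complex, had -0.26 with sgEZH2-1 (adjusted p = 0.0201) and 0.85 with sgEZH2-2 (adjusted p = 0.0426), and both calls were lost without the first control, at -0.21 (adjusted p = 0.149) and 0.72 (adjusted p = 0.217), and under 5 and 9 of 13 alternatives in all.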

How the data were processed

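RNA-seq libraries of HSC-5 cells were prepared with a stranded mRNA kit, per the labels' protocols. The submitters' processing notes name FastQC, STAR, DESeq and hg38. Tool versions, the counting tool, its annotation and its use of strand were not given in the sources used here. The authors deposited raw read counts per gene, and 0 columns of library values were left unused. Columns name the group but no replicate number, so libraries are numbered by column only. Counts of 20294 genes in 8 libraries were fitted with edgeR 4.0.16 in R 4.3.3 (3 groups in 1 quasi-likelihood fit, TMM scaling, filterByExpr with a minimum count of 10), with Benjamini-Hochberg adjustment over 13124 genes and a threshold of 0.05. Log2 CPM for likeness used a prior count of 2 and genes with a mean count of at least 50. Totals of 12607952 to 15468597 counts put the floor at 3 counts per group, and intervals are exact at 95% and cover counting error only. Lengths and positions came from GENCODE on GRCh38.

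The genes named were the 9 members, EZH2, up to 3 genes per pathway list and comparison with the smallest adjusted p at or below 0.05, the 5 genes most like NEO1 and the tested genes within 500 kb of its start. Marker genes, HK3, WASF2, BMP7, ID3, ID4, SMAD6, SMAD7 and the untested genes were named outside that rule, after their values were seen. The members and lists were chosen with earlier results of these data known. The code was tested on simulated data. Alternatives were RLE and upper-quartile scaling, no filter on low counts, DESeq2 1.42.0, only the libraries compared, another gene length and leaving out each library. The leukocyte marker list is not reported here.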

Additional observations from a re-analysis of the deposited data

Results flagged for a closer look

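Levels differed between the 2 guide groups for the following genes, each by edgeR's test of sgEZH2-1 against sgEZH2-2, given as a log2 difference. A difference between the guides cannot be told apart here from one between the cell populations that carry them. Among the receptors NEO1 was at 0.54 and UNC5B at -0.49, and EZH2 was at -0.36. Of the other receptors ITGB1 was at 0.26, MCAM at 0.57, LRRC4 at 0.98 and ITGB4 at -0.56. Of the signalling and actin genes MAP1B was at 1.31, FYN at 1.37, PTK2 at -0.19, CYFIP2 at -0.7, CYFIP1 at -0.26 and NCKAP1 at 0.22. MBTPS1 was at -0.22 and DAPK1 at 0.96. Of the BMP genes ID2 was at 1.04, BMP4 at 0.55 and ID1 at -0.36. Of the partners at cell contacts BOC was at -1.0, LRIG1 at -0.77 and CDH2 at 1.41. Of the genes most like NEO1, KHDRBS3 was at 0.63, SATB1 at 0.56, PPM1H at 0.46 and TMEM98 at 0.46, and the neighbour ADPGK was at 0.17. Of these calls, that of ADPGK was lost under 8 of the 13 alternatives, that of MCAM under 6, those of NCKAP1, KHDRBS3 and TMEM98 under 5 each, that of MBTPS1 under 4, those of PTK2, ID2 and PPM1H under 3 each, that of ITGB4 under 2, and those of LRRC4, ID1 and SATB1 under 1 each. Groups of 2 or 3 libraries are too small for the test of a single outlying sample; values that rest on 1 library are given from the fits that leave each one out.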

How the results depend on the processing

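NEO1 kept its direction under the 13 alternatives run, at 4.47 to 4.72 on the log2 scale with sgEZH2-1 and 3.93 to 4.18 with sgEZH2-2 over leave-one-out fits, and at 0.5 to 0.6 between the guides over all alternatives (adjusted p from 1.83e-06 to 0.00835). UNC5B between the guides kept its call at -0.57 to -0.41 (adjusted p from 0.00131 to 0.0379). Genes called over the whole table ranged from 1373 to 2591 with sgEZH2-1, 521 to 1365 with sgEZH2-2 and 1521 to 2995 between the guides when 1 library was left out, and from 1932 to 2732, 974 to 1139 and 2447 to 3044 under the other settings. They moved by over 1.5 times with sgEZH2-1 without the first control (1373) or the second sgEZH2-1 library (1804), with sgEZH2-2 without either control (521 and 579) or its second or last library (660 and 688), and between the guides without the second sgEZH2-1 library (1691) or the second or last sgEZH2-2 library (1521 and 1572). With the longest transcript as length, UNC5B stood at place 5 with sgEZH2-1 and 4 in the controls. When 1 library was left out, some values near 0 turned their sign, with the cause not tested. For sgEZH2-2 against control these were ITGB1 (-0.036 to 0.093), LRRC4 (-0.32 to 0.32, and 0.045 without the third sgEZH2-2 library), NCKAP1 (-0.14 to 0.11) and BMP4 (-0.13 to 0.049). Between the guides they were RGMA (-0.018 to 0.23), WASF3 (-0.078 to 0.04) and BBS4 (-0.21 to 0.018). EZH2 with sgEZH2-2 was at -0.28 (adjusted p = 0.0699), and without the third sgEZH2-1 library at -0.26 (adjusted p = 0.0473). Of 46 calls of list genes 26 were kept under every alternative run. No paired analysis was possible because the columns of the count table carry no replicate number. Depth limits UNC5A, UNC5C and DCC, and the 2 controls limit both comparisons with them.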

Other observations

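NTNG2, which encodes a membrane-anchored netrin relative, had 12 counts over the 3 sgEZH2-1 libraries and 15 over the 3 sgEZH2-2 libraries, against 1 over the 2 controls, and was too low to be tested. It was picked from the untested ligands after their values were seen. FLRT1, another of them, went the other way, with 17 and 16 counts against 21 over the controls. NTN3, NTN5, NTNG1, HJV and CBLN4 had at most 8 counts in any group. HCN4, a neighbour of NEO1 that encodes a pacemaker channel, had 6, 4 and 0 counts with sgEZH2-1 and 1, 0 and 1 with sgEZH2-2, against 0 and 0 in the controls.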
